A study of Mus musculus with 9 samples.

Results

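The cardiac transcription factors described here are the 10 genes Gata4, Nkx2-5, Mef2a, Mef2c, Mef2d, Tbx5, Tbx20, Tbx2, Hand2 and Srf, chosen by name as regulators of heart muscle genes, out of 53465 genes in each count file. Their transcripts were measured by RNA sequencing in the hearts of immunodeficient mice, strain NOD-SCID, which tolerate foreign cells. The labels place every library in the border zone of the infarct, the tissue next to the muscle that dies when its artery is closed, and the same region is named for the sham hearts. There were 3 groups of 3 libraries: sham surgery, coronary artery ligation, and coronary artery ligation followed by implantation of FOXO3-GE-MPCs, called the cell group, or "with cells", below. The age of the mice, the time after surgery and what the ligated hearts without cells received instead are not given in the sources used here, and the labels do not spell out the name of the implanted cells. Titles and treatment fields name FOXO3 in all 3 cell libraries, whereas for cell replicates 2 and 3 the source field gives another FOXO number. Nothing in the labels ties a library to a separate animal, so p-values measure the spread between these libraries, which may be technical.

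These proteins form the core network that specifies the heart in the embryo and keeps muscle genes on in the adult. GATA4, a zinc finger protein, NKX2-5, a homeodomain protein, and the T-box proteins TBX5 and TBX20 bind regulatory DNA together at genes for contractile proteins, natriuretic peptides and gap junction proteins, while TBX2 is known as a repressor that keeps chamber muscle genes off in the atrioventricular canal. HAND2 is a basic helix-loop-helix protein of the right ventricle and outflow tract. The MEF2 proteins and SRF belong to the MADS-box family. MEF2 activity is held down by class IIa histone deacetylases and released by stress kinases, and SRF takes its direction from partners such as the myocardin family (muscle and cytoskeletal genes) and the ternary complex factors (immediate-early genes). Several members are known from other cells of the heart too, such as fibroblasts and smooth muscle cells.

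DNA at the start sites of 3 members is printed because it holds the recognition sequence of the member's own family, or of another member, next to the values given below. Sequences come from the RefSeq promoter table of build GRCm38.p6 (mm10), which held 7 of the 10 members. For Srf, the 250 bases before the RefSeq start site at chr17:46556163-46556412, minus strand, are shown with CArG boxes, the motif that SRF itself binds, in capitals. For Mef2a, 160 bases at chr7:67372849-67373008, minus strand, are shown with the MEF2 motif, which straddles the start site, in capitals. For Hand2, the 250 bases before the start site at chr8:57320733-57320982, plus strand, are shown with the short motif of GATA factors, searched on either strand, in capitals.
Srf: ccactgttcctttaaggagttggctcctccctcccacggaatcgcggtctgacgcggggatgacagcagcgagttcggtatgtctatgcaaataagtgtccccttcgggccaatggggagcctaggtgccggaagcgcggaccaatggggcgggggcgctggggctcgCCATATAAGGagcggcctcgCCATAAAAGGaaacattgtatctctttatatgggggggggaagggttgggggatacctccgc
Mef2a: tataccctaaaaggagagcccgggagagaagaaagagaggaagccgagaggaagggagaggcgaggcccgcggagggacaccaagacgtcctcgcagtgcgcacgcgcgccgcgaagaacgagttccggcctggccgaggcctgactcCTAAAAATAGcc
Hand2: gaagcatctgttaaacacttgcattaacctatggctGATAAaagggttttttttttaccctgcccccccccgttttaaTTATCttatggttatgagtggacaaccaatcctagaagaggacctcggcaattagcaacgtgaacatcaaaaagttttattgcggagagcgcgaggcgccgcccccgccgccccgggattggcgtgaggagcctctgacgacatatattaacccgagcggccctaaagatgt
Srf held 2 CArG boxes, CCATATAAGG and CCATAAAAGG, and 1.63% of the 32851 promoters of 300 bases in the table held at least 1. Mef2a held 1 MEF2 motif, CTAAAAATAG, against 3.19% of promoters with at least 1, and Hand2 held 2 matches to GATAA against 25.4%. A Mef2c promoter in the table, not printed, also held 2 matches to GATAA. The T-box letters GTGTGA, found in 14.5% of promoters, were present in Mef2c. The NKX2-5 letters AAGTG, found in 46.4%, were present in Mef2c, Hand2 and Srf. None of these 5 motifs was found in the promoters listed for Nkx2-5, Mef2d and Tbx20. Both strands were searched, and a match describes the letters, not binding.

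Gene counts per library ran from 4549268 to 7515052, the lowest in ligation replicate 1, and 3 counts corresponded to 0.375 to 0.639 CPM (counts brought to a common library size with TMM factors). The members had 106 to 1254 counts in every library and all 10 passed the filter on low counts. Column headers of sham replicates 1 and 2 share a name stem, as do those of ligation replicates 2 and 3. No pair of replicates was as alike as counting noise allows (mean chi-square of 1.96 to 3.88 for each gene). The pairs with a shared stem gave 3.88 in sham, beside 3.02 and 3.15 for the other sham pairs, and 2.29 in ligation, beside 2.36 and 3.58. Separate libraries of 1 animal can also exceed counting noise, so this does not settle whether these pairs share an animal. The heart muscle label was borne out by 12 of 12 cardiomyocyte markers with reads in every group. Marker sums of several cell types moved with the groups, and in bulk tissue fewer cells of a type and less RNA per cell cannot be told apart. Summed cardiomyocyte markers were at 62050 to 63780 CPM in sham, 47250 to 49130 after ligation and 46480 to 47580 with cells. Fibroblast markers, 10 in number, summed to 2658 to 2722, 4782 to 4872 and 4511 to 4623 CPM. After ligation 7 of them were higher, 1 lower and 2 did not pass, where 20.1% of all genes tested were higher and 18% lower. Mean CPM went from 84.3 to 426 for Postn and from 470.5 to 1228 for Col3a1. Pdgfra went from 61.4 to 53.4 and Tcf21 from 18.4 to 19.3. The 9 macrophage markers stood at 760 to 816, 1325 to 1359 and 541 to 554 CPM, and the 9 endothelial markers at 2782 to 2940, 1820 to 1896 and 1902 to 1941. Mitochondrially encoded genes took 19.1% to 19.9% of the sham counts, 12.6% to 13.9% of those after ligation and 14.3% of those with cells. The 6 neutrophil markers summed to 37.9 to 45.2 CPM in sham, 14.9 to 21.0 after ligation and 5.76 to 6.80 with cells, with Mpo at 0 counts in sham. Sums of the 9 skeletal muscle markers were 2.67 to 4.45, 8.68 to 12.4 and 2.13 to 3.31 CPM, with Myh2 and Myh4 at 0 in sham, Myod1 and Myf6 at 0 after ligation, and Myh4, Myod1 and Myf6 at 0 with cells. What these shifts contribute to the results on the members and on the other gene lists below was not tested.

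After ligation 6 of the 10 members rose and 1 fell: Gata4, Nkx2-5, Tbx5, Tbx20, Hand2 and Srf were higher than in sham, Tbx2 was lower, and the 3 MEF2 genes did not pass the test. Of all 13825 genes tested, 38.2% passed, 20.1% higher and 18% lower, at an adjusted p-value under 0.05 (edgeR quasi-likelihood test, Benjamini-Hochberg adjustment over all genes). Between ligation and the cell group 3 members rose, Gata4, Tbx20 and Srf, and 0 fell, where 4.19% of all genes were higher and 5.69% lower (9.87% in either direction). With cells against sham, 6 rose (Gata4, Mef2c, Tbx5, Tbx20, Hand2 and Srf) and 1 fell (Tbx2), against 21% and 20% of all genes (40.9% in either direction). The median log2 fold change of the members was 0.25, 0.10 and 0.29 in these comparisons, beside 0.0080, 0.0020 and -0.00735 for all genes. CPM ranges of the groups did not overlap for 6, 5 and 7 members, against 47.6%, 27.2% and 49.8% of all genes. Each pair of comparisons shares 1 group of libraries, so they are not independent of each other. Library totals in place of TMM scaling shift the median gene by 0.20 after ligation and by 0.15 for cells against sham, and all changes below refer to the TMM scale. With totals 9 members were higher and 0 lower after ligation, where 35.9% of all genes were higher and 9.74% lower. In the cell group against sham 9 were then higher and 1 lower, beside 33.4% and 12.3% of all genes.

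**Figure D1:**
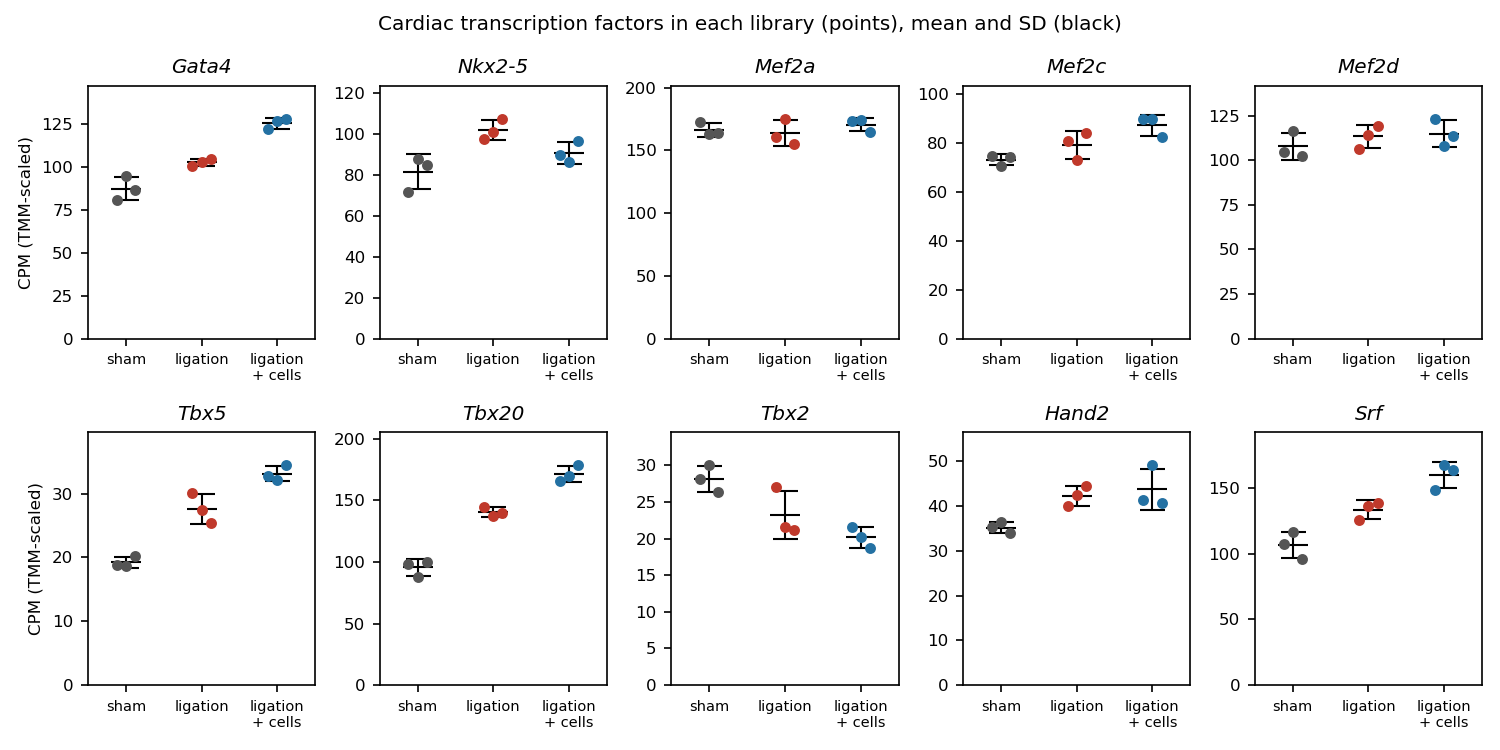
CPM (TMM-scaled, y axis from 0) of the 10 transcription factors in each of the 3 sham, 3 ligation and 3 cell-group libraries (points), with the group mean and SD in black. Gata4, Tbx5, Tbx20 and Srf step up from sham to ligation to the cell group with no overlap between groups, and Tbx2 has its lowest mean in the cell group, which overlaps ligation.

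Gata4 (ENSMUSG00000021944, chr14:63198922-63271692, minus strand, mm10), the zinc finger activator of stress-responsive muscle genes, rose in both steps. It was at 81.0, 94.7 and 86.8 CPM in sham, 100.8, 102.9 and 105 CPM in ligation, and 122, 126.8 and 128.1 CPM in the cell group. Every ligation library lay above every sham library and below every cell library. The log2 fold change was 0.23 (SE 0.065, edgeR adjusted p 0.00702) after ligation and 0.29 (SE 0.0628, edgeR adjusted p 0.00452) in the cell group against ligation. Against sham the cell group was higher by 0.52 on the log2 scale (SE 0.0639, edgeR adjusted p 1.42e-06). The step after ligation did not pass without sham replicate 1 (log2 fold change 0.18, edgeR adjusted p 0.0538).

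Nkx2-5 (ENSMUSG00000015579, chr17:26838664-26845009, minus strand), the homeodomain partner of GATA4, was highest in ligation without cells. Its CPM was 71.7, 88.0 and 84.8 in sham, 97.6, 101.1 and 107.4 after ligation, and 89.6, 86.3 and 96.7 with cells. The ligation values were above all others, and the cell group overlapped sham. The rise after ligation was 0.33 (log2, SE 0.0756, edgeR adjusted p 0.00175). The difference of the cell group from ligation was -0.17 (SE 0.0741, 95% interval -0.33 to -0.016, edgeR adjusted p 0.168), and from sham 0.16 (SE 0.0757, 95% interval -0.0029 to 0.31, edgeR adjusted p 0.109). Neither passed. The difference from sham was 0.072 without sham replicate 1 (edgeR adjusted p 0.490) and 0.21 without sham replicate 2 (edgeR adjusted p 0.0486), the latter past the threshold.

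Hand2 (ENSMUSG00000038193, chr8:57320983-57324633, plus strand), whose promoter with GATAA motifs is printed above, had 35.2, 36.4 and 34.0 CPM in sham, 40.1, 42.5 and 44.5 after ligation and 41.4, 49.1 and 40.8 with cells. Sham lay below every library of the other groups, which overlapped each other. It rose by 0.27 (log2, SE 0.0899, edgeR adjusted p 0.0204) after ligation and stood 0.31 (SE 0.0887, edgeR adjusted p 0.00725) above sham in the cell group, with 0.041 (95% interval -0.14 to 0.22, edgeR adjusted p 0.828) between them. The ligation call was lost with DESeq2 (0.27, adjusted p 0.0676), with libraries summed by header stem (0.25, edgeR adjusted p 0.0777), and without sham replicate 3 (0.25, edgeR adjusted p 0.0708) or ligation replicate 3 (0.22, edgeR adjusted p 0.118). The call against sham was lost without cell replicate 2 (0.22, edgeR adjusted p 0.0519). Hand2 shares 461 bases, 19.6% of its exon length, with Hand2os1, a non-coding gene on the opposite strand, and the strand setting of the counting is not stated. Hand2os1 moved the other way, from 73.6 ± 5.12 CPM (SD, n = 3) in sham to 58.6 ± 2.17 in ligation (log2 fold change -0.33, SE 0.0706, edgeR adjusted p 0.000783) and 61.7 ± 2.38 in the cell group. Reads from the shared stretch cannot be assigned to either gene without strand.

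The T-box genes moved in opposite directions. Tbx20 (ENSMUSG00000031965, chr9:24718138-24774303, minus strand), needed for adult heart muscle function, had the largest change of the 10. It read 98.6, 87.8 and 100.2 CPM in sham, 145.1, 137.2 and 139.9 after ligation and 166, 170.1 and 178.5 with cells. The 3 groups did not overlap. It rose by 0.56 (log2, SE 0.0626, edgeR adjusted p 4.40e-07) after ligation and by 0.29 (SE 0.0600, edgeR adjusted p 0.00311) from ligation to the cell group, which made 0.84 (SE 0.0618, edgeR adjusted p 7.19e-10) against sham, or 79.5% above it. These calls held in every alternative run.

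Tbx5 (ENSMUSG00000018263, chr5:119832668-119885219, plus strand), the gene of Holt-Oram syndrome and a regulator of atrial and conduction genes, was at 18.9, 18.6 and 20.2 CPM in sham, 30.0, 27.5 and 25.4 after ligation, and 32.8, 32.2 and 34.4 with cells. Again the groups were ordered with no overlap. The rise after ligation was 0.51 (log2, SE 0.104, edgeR adjusted p 0.000545), and the cell group was 0.78 (SE 0.101, edgeR adjusted p 2.70e-06) above sham. For the step from ligation to the cell group, 0.27 (SE 0.0953, 95% interval 0.073 to 0.47), the edgeR adjusted p was 0.0793, which misses the threshold. Atrial markers moved between the same groups: the 5 genes Myl7, Myl4, Sln, Bmp10 and Dkk3 summed to 450 to 492 CPM in sham, 369 to 406 after ligation and 1099 to 1167 with cells, where 4 of the 5 were higher and Bmp10 lower than in ligation. Their part in the T-box values was not tested.

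Tbx2 (ENSMUSG00000000093, chr11:85832551-85841948, plus strand), the repressor, was the member that fell. Its CPM was 28.1, 30.0 and 26.4 in sham, 27.1, 21.6 and 21.1 after ligation and 21.6, 20.3 and 18.7 with cells. Ligation replicate 1 lay within the sham range, while every cell library was below every sham library. The cell group was lower than sham by -0.48 on the log2 scale (SE 0.115, edgeR adjusted p 0.00223), or -28.3%. The fall after ligation, -0.29 (SE 0.115), sat at the threshold with an edgeR adjusted p of 0.0494. From ligation to the cell group the difference was -0.18 (95% interval -0.43 to 0.061, edgeR adjusted p 0.385), and -0.082 without ligation replicate 1. The fall after ligation did not pass in 11 alternatives, among them DESeq2 (adjusted p 0.105), library totals alone (edgeR adjusted p 0.476) and fits without either of 2 sham or 2 ligation libraries (edgeR adjusted p 0.0930 to 0.168).

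Srf (ENSMUSG00000015605, chr17:46548329-46556175, minus strand), whose own promoter carries the CArG boxes printed above, rose in both steps. Its values were 107.3, 116.5 and 96.2 CPM in sham, 125.7, 136.7 and 138.8 after ligation and 148.9, 167.4 and 164.1 with cells, again without overlap. After ligation it was higher by 0.33 (log2, SE 0.0715, edgeR adjusted p 0.000969) and in the cell group by a further 0.26 (SE 0.0694, edgeR adjusted p 0.0203), giving 0.59 (SE 0.0707, edgeR adjusted p 1.10e-06) against sham. The call of the cell group against ligation was lost without ligation replicate 1 or 2 or cell replicate 2 or 3 (log2 fold changes 0.22, 0.27, 0.22 and 0.24, edgeR adjusted p 0.0539 to 0.0876).

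The MEF2 genes, the other MADS-box members, did not pass in either step, and Mef2c alone of the 3 passed the test, as higher, in the cell group against sham. Mef2a (ENSMUSG00000030557, chr7:67231163-67372858, minus strand), the most counted of the 3, had 172.5, 162.9 and 163.5 CPM in sham, 160.9, 175.1 and 155 after ligation and 173.3, 173.9 and 164.5 with cells. All 3 groups overlapped. The 95% intervals of its log2 difference were -0.14 to 0.098 after ligation (edgeR adjusted p 0.791), -0.060 to 0.18 for the cell group against ligation (edgeR adjusted p 0.599) and -0.083 to 0.16 against sham (edgeR adjusted p 0.640). Without single libraries the difference ran from 0.021 to 0.11 for the cell group against ligation and from 0.021 to 0.063 against sham. The estimate after ligation, -0.023, turned to 0.17 with library totals alone, beside 0.20 for the median gene. Mef2a shares 302 bases (2.06% of its exon length) with Lysmd4 on the opposite strand, and Mef2d 531 bases (8.87%) with 1700113A16Rik, which had at most 3 counts.

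Mef2d (ENSMUSG00000001419, chr3:88142372-88172086, plus strand) read 104.5, 116.3 and 102.2 CPM in sham, 106.5, 114.2 and 119.3 after ligation and 123.1, 108.2 and 113.4 with cells. Its groups overlapped as well, and the log2 differences were 0.077 (95% interval -0.067 to 0.22), 0.016 (-0.13 to 0.16) and 0.093 (-0.050 to 0.24), with edgeR adjusted p-values of 0.409, 0.921 and 0.297. Without single libraries they ran from 0.020 (without ligation replicate 3) to 0.14 (without sham replicate 2) after ligation, from -0.036 to 0.057 between ligation and the cell group, and from 0.042 (without cell replicate 1) to 0.15 (without sham replicate 2) against sham. Mef2c (ENSMUSG00000005583, chr13:83504034-83667080, plus strand), the MEF2 gene required for early heart looping, was at 74.6, 70.8 and 74.5 CPM in sham, 80.8, 73.1 and 84.0 after ligation and 89.9, 89.9 and 82.4 with cells. The cell group lay above sham in every library, with a log2 fold change of 0.25 (SE 0.0686, edgeR adjusted p 0.00535). Neither single step passed: 0.11 (95% interval -0.032 to 0.26, edgeR adjusted p 0.218) after ligation and 0.14 (-0.00073 to 0.28, edgeR adjusted p 0.223) from ligation to the cell group. The first was 0.047 without ligation replicate 3 and 0.17 without ligation replicate 2, and the second was 0.19 and 0.081 without the same libraries.

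**Figure D2:**
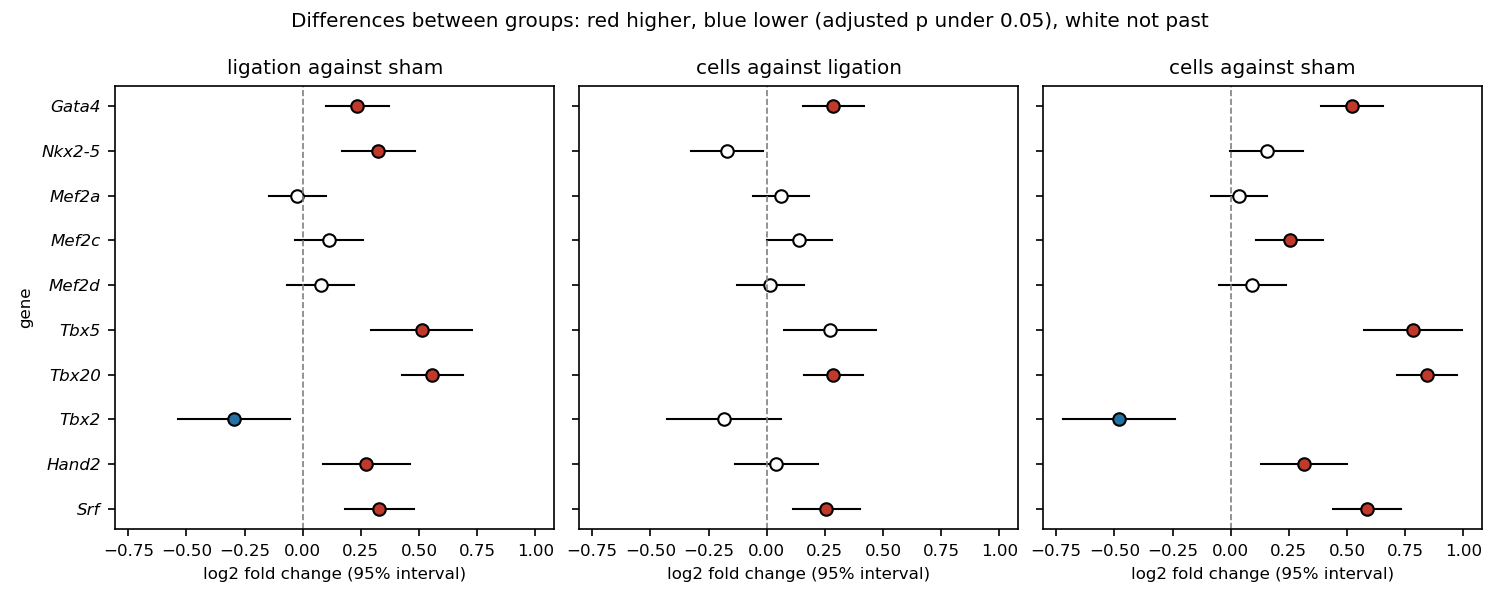
Log2 fold change of each transcription factor (x axis) with its 95% interval in the 3 comparisons. Red points were higher and blue points lower at an adjusted p-value under 0.05, and white points did not pass. Tbx20 and Tbx5 are farthest to the right against sham (0.84 and 0.78), Tbx2 is farthest to the left (-0.48), and Mef2a sits near 0 in each panel.

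Levels of different genes can be compared per kilobase of exon, with the limit that the union of annotated exons counts untranslated ends that may not all be used. On that scale Nkx2-5 led in sham, at 47.4 ± 5.01 CPM per kb (SD, n = 3), followed by Srf at 36.9 ± 3.51, Gata4 at 22.4 ± 1.77, Mef2d at 17.99 ± 1.26, Hand2 at 14.98 ± 0.519 and Mef2a at 11.3 ± 0.364. Tbx20 (7.96 ± 0.561) and Tbx2 (7.76 ± 0.501) overlapped in sham, and Mef2c (4.66 ± 0.135) and Tbx5 (4.11 ± 0.177) were lowest. With cells, Srf (55.4 ± 3.41) and Nkx2-5 (52.9 ± 3.08) overlapped at the top. Tbx20 there, at 14.3 ± 0.532 CPM per kb, lay above Mef2a (11.6 ± 0.360), Tbx5 (7.09 ± 0.249) lay above Tbx2, and Tbx2 (5.57 ± 0.391) overlapped Mef2c (5.56 ± 0.276).

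Shares within the MEF2 family do not depend on how libraries are scaled, but their order depends on exon length, 14.68 kb for Mef2a and 5.985 kb for Mef2d. Per kilobase Mef2d held the largest share in each of the 9 libraries, whereas in raw counts Mef2a did. Per kilobase, Mef2d made up 52.9% ± 2.22 (SD, n = 3) of the reads of Mef2a, Mef2c and Mef2d in sham, 53.9% ± 1.58 after ligation and 52.7% ± 1.77 with cells. Mef2a took 33.4% ± 1.51, 31.8% ± 2.05 and 32.0% ± 1.16. Mef2c took 13.7% ± 0.783, 14.4% ± 1.16 and 15.3% ± 0.659. The Mef2c share of the cell group was 14.8% to 16.0%, above the 12.9% to 14.4% of sham, with an exact two-sided permutation p of 0.1, the smallest that 3 against 3 libraries allow. The other 8 pairwise tests of shares gave exact permutation p-values of 0.2 to 1.

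Each member was also set against the summed reads of the 12 cardiomyocyte markers, a sum that was lower in the ligated groups. The markers did not move alike. After ligation 8 were lower, 2 higher and 2 did not pass, where 18% of all genes were lower and 20.1% higher. Mean CPM went from 6091 to 3164 for Tnni3, from 9372 to 8973 for Tnnt2 and from 655 to 840 for Ryr2. A member with steady CPM, such as Mef2a, therefore rises on this scale as the sum falls. Tbx20 went from 15.2 ± 1.26 reads per 10000 marker reads (SD, n = 3) in sham to 29.1 ± 0.752 in ligation and 36.5 ± 1.62 in the cell group. Gata4 went from 13.9 ± 0.992 to 21.3 ± 0.860 and 26.8 ± 0.748, and Mef2a from 26.4 ± 0.938 to 33.9 ± 1.91 and 36.3 ± 0.847. Tbx2 overlapped between the groups at 4.47 ± 0.227, 4.81 ± 0.607 and 4.30 ± 0.291. Of the 10 members, 9 were higher on this scale in every ligation library than in any sham library and 9 in every cell library, but so were 57.9% and 59.5% of all genes tested. In the cell group against ligation the 4 members Gata4, Tbx5, Tbx20 and Srf were higher in every library, against 18% of all genes. Each such separation has an exact two-sided permutation p of 0.1, the smallest possible.

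**Figure D3:**
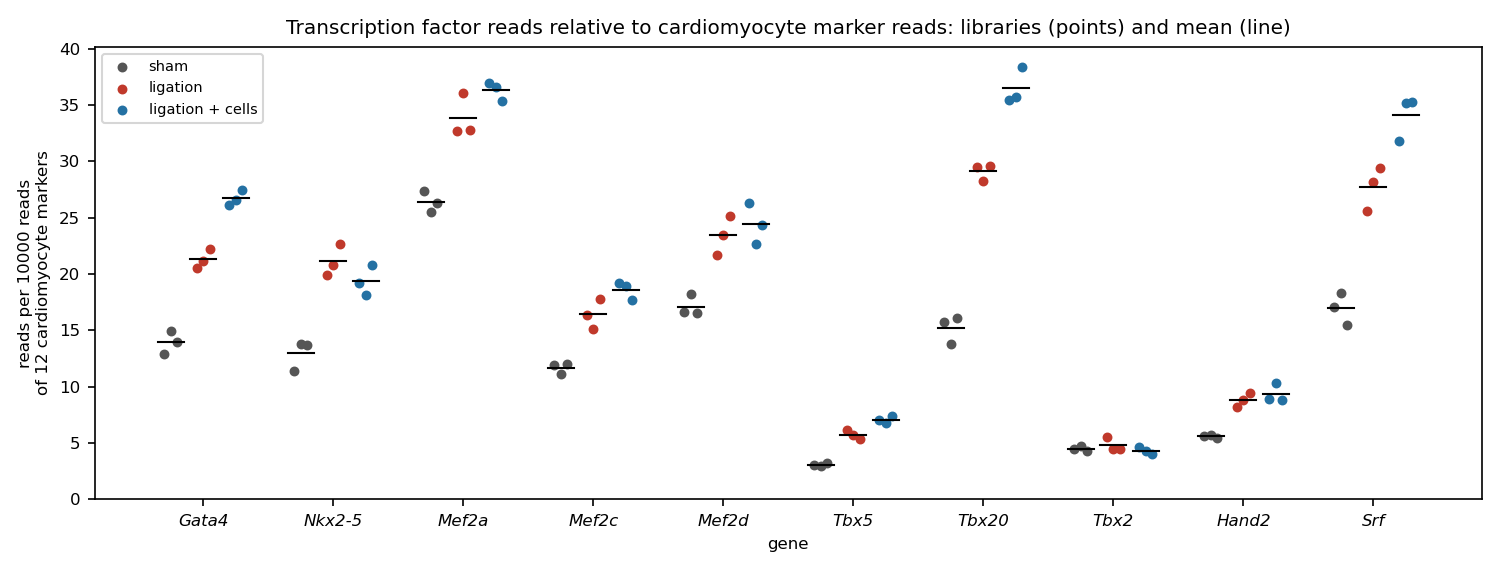
Reads of each transcription factor per 10000 reads of the 12 cardiomyocyte markers (y axis from 0) in each library (points) with group means (lines). The marker sum itself was lower in the ligated groups, though not every marker fell. Tbx20 goes from 15.2 to 29.1 to 36.5 on average, Mef2a has means of 26.4, 33.9 and 36.3, and the Tbx2 groups overlap.

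A wider list of 26 cardiac transcription factors held 21 genes with enough counts to test. After ligation 5 of them rose (Gata5, Gata6, Nfatc4, Tbx18 and Tead1) and 2 fell (Tbx3 and Prdm16), with a median of 0.044 on the log2 scale, where 20.1% of all genes tested were higher and 18% lower. Gata5, a GATA factor of the epicardium and endocardium, and Tbx18, an epicardial T-box gene, were higher by 2.37 (SE 0.395, edgeR adjusted p 6.75e-05) and 0.71 (SE 0.190, edgeR adjusted p 0.00562). The Gata5 change starts from few reads, with 3, 6 and 5 counts in sham against 18, 37 and 25 after ligation. The close relative Gata6 rose by 0.30 (edgeR adjusted p 0.00342), beside 0.23 for Gata4. Tbx3, a T-box repressor of the conduction system and a close relative of Tbx2, was lower by -1.28 (SE 0.0950, edgeR adjusted p 9.87e-10). The 5 epicardial markers Wt1, Upk3b, Msln, Upk1b and Krt19 all rose after ligation and summed to 31.0 to 42.9 CPM in sham, 194 to 238 after ligation and 162 to 170 with cells, and their part in the values of Gata5 and Tbx18 was not tested. In the cell group against ligation Tbx3 (0.49, edgeR adjusted p 0.0023) and Irx4, a ventricular homeobox gene (0.30, edgeR adjusted p 0.035), rose and Nfatc2, a calcineurin-regulated factor, was lower by -0.49 (edgeR adjusted p 0.0445), leaving 18 that did not pass (4.19% of all genes were higher and 5.69% lower). Against sham 4 rose (Gata5, Gata6, Nfatc4 and Tead1) and 1 fell, Tbx3, at -0.79 (edgeR adjusted p 4.71e-07), against 21% and 20% of all genes. Gata5 stood at 1.89 there (edgeR adjusted p 0.000944), on the same low sham counts. Tead1, the DNA-binding partner of YAP, stood at 0.57 in that comparison (edgeR adjusted p 2.38e-07). Nkx2-6 and Hand1 had 0 counts in every library, and Mef2b and Isl1 had at most 5.

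Among 14 genes for regulators of MEF2 and SRF, 7 fell and 1 rose after ligation, with a median of -0.19, where 18% of all genes tested were lower and 20.1% higher. Hopx, a homeodomain-only protein that restrains SRF, and Fhl2, a LIM protein that also binds SRF, fell by 0.93 (SE 0.105, edgeR adjusted p 4.73e-07) and fell by 0.91 (SE 0.0404, edgeR adjusted p 3.66e-13). The class IIa deacetylase genes Hdac5 and Hdac7 fell by 0.28 and fell by 0.38 (edgeR adjusted p 0.00109 and 0.000362), while Hdac4 and Hdac9 did not pass, at 0.19 and 0.048. Elk3, Elk4 and Mapk14, for ternary complex factors and the p38 kinase, were also lower. Mrtfa, an actin-regulated coactivator of SRF, was the gene that rose, by 0.73 (SE 0.151, edgeR adjusted p 0.000634). In the cell group it was lower than in ligation by -0.57 (SE 0.145, edgeR adjusted p 0.0139), whereas Srf was higher there, and the other 13 regulators did not pass (5.69% of all genes were lower and 4.19% higher). Against sham, Camk2d and Hdac9 rose and 7 regulators fell with cells, beside 21% of all genes higher and 20% lower, with Hopx at -0.96, Fhl2 at -0.89 and Hdac7 at -0.52. Myocd, the heart and smooth muscle coactivator of SRF, did not pass in any of the 3 comparisons.

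Known SRF targets of the smooth muscle, cytoskeletal and immediate-early kind numbered 16, of which 15 could be tested. After ligation 9 rose and 3 fell (median 0.41), the largest being Fos at 1.48, Fhl1, a LIM protein gene, at 1.22 and Ccn1 at 0.81. Over all genes tested 20.1% were higher and 18% lower in that comparison. In the cell group against ligation 9 rose and 0 fell (median 0.32), where 4.19% and 5.69% of all genes did. Against sham 9 rose and 3 fell (median 0.41), beside 21% and 20% of all genes, and Fos stood at 2.996, Egr1 at 2.79 and Fhl1 at 1.38. From ligation to the cell group the immediate-early genes Egr1 and Fos rose by 2.21 (SE 0.0929, edgeR adjusted p 9.35e-13) and 1.51 (SE 0.139, edgeR adjusted p 1.84e-07). Acta1, the skeletal alpha-actin re-expressed in stressed heart muscle, rose by 0.55 (SE 0.0390, edgeR adjusted p 4.10e-09), after 0.41 from sham to ligation. Genes of smooth muscle and the cytoskeleton went in both directions. Myl9 and Cnn2 rose by 0.17 and 0.49 after ligation (edgeR adjusted p 0.0173 and 1.03e-05) and did not pass from ligation to the cell group. Acta2 and Tpm2 fell by 0.43 and fell by 0.48 after ligation and rose by 0.15 and 0.22 with cells, Cnn1 did not pass in any comparison, and Tagln, with at most 11 counts, was not tested. The 9 smooth muscle and pericyte markers, 3 of which are also in this list, summed to 1717 to 1760 CPM in sham, 1291 to 1305 after ligation and 1269 to 1298 with cells.

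Cardiomyocyte genes known as targets of these factors split in direction. Of 22, 11 rose and 7 fell after ligation (median 0.12), where 20.1% of all genes tested were higher and 18% lower. From ligation to the cell group 7 rose and 1 fell, Tnnt2 (median 0.067), beside 4.19% and 5.69% of all genes. In the cell group against sham 12 rose and 7 fell (median 0.22), beside 21% and 20% of all genes, led by Nppa at 2.89, Slc8a1 at 1.80 and Xirp2 at 1.76. Nppa, the atrial natriuretic peptide gene and a shared target of GATA4, NKX2-5 and TBX5, rose by 3.06, Xirp2, a MEF2 target, by 1.61 and Slc8a1, the sodium-calcium exchanger, by 1.42 after ligation (largest edgeR adjusted p 2.95e-08). Gja5, the connexin controlled by TBX5 and NKX2-5, rose by 0.77, while Tnni3 and Myl2, for troponin I and the ventricular light chain, fell by 0.95 and fell by 0.94. With cells, Xirp1 rose by a further 0.44 (SE 0.0557, edgeR adjusted p 1.47e-05), Slc8a1 by 0.38 (SE 0.0661, edgeR adjusted p 0.000488) and Smyd1, a muscle methyltransferase gene under MEF2C, by 0.33 (SE 0.0467, edgeR adjusted p 4.94e-05). Nppa did not pass in that step, at -0.17. Of these 22 genes, 8 also stand in the cardiomyocyte marker list, of which 8 of 12 fell and 2 rose after ligation.

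**Figure D4:**
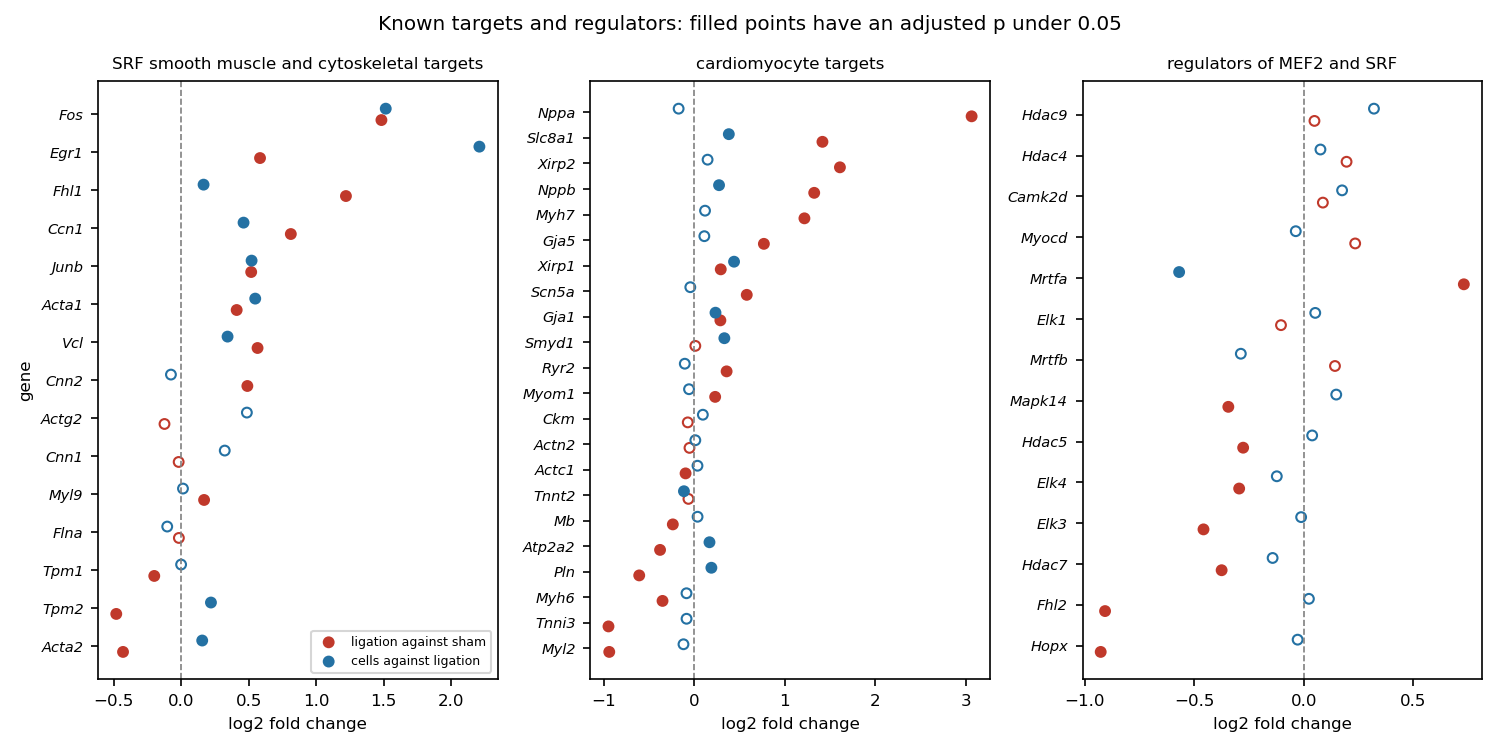
Log2 fold change (x axis) of known SRF targets, cardiomyocyte targets and regulators of MEF2 and SRF after ligation (red) and in the cell group against ligation (blue), which share the ligation libraries. Filled points passed an adjusted p-value of 0.05: Fos rose by 1.48 and then 1.51, Egr1 by 0.58 and then 2.21, and Hopx and Fhl2 lie near -0.93 and -0.91 after ligation.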

How the data were processed

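Libraries were made from total RNA with the NEBNext Ultra RNA kit, per the labels' protocols. The authors deposited raw read counts per gene, 1 table per library. The build is mm10, per the submitters' processing notes; the aligner, counter, strand setting and annotation release are not given in the sources used here. Lines that name no gene were left out (no feature 4.14% to 4.91% of reads, ambiguous 8.09% to 8.72%). Symbols, exon lengths and positions came from GENCODE M21 (GRCm38) and matched 53274 of 53465 IDs.

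Counts were filtered with filterByExpr, scaled with TMM factors and fitted together, all 9 libraries in 1 model of group means (edgeR 4.0.16, R 4.3.3, 6 residual degrees of freedom before moderation). P-values from glmQLFTest were adjusted over 13825 genes. The SE is the log2 fold change divided by the square root of F, and 95% intervals use edgeR's moderated degrees of freedom. Shares and ratios were compared with exact two-sided permutation tests (scipy 1.17.1). The pipeline was tested on simulated data for ligation against sham. Reads carry no molecular identifiers, so duplicate reads of 1 molecule cannot be told apart in the counts.

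The members, lists and alternatives were chosen with earlier results of these data known. From the lists of related factors, regulators and targets, the 3 largest changes past the threshold without overlapping ranges were named in each comparison; cell type markers are given as sums. Further genes named from the lists, such as Gata6, Hdac5, Gja5, Acta2 and Cnn2, were chosen after their values were seen. Alternatives were other scalings, filters, DESeq2 1.42.0, limma-voom (limma 3.58.1), 2-group fits, removal of mitochondrially encoded genes, a replicate block and leaving out each library. Summing libraries by header stem was chosen after seeing the data.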

Additional observations from a re-analysis of the deposited data

How the results depend on the processing

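The numbers of members past the threshold (7 after ligation, 3 for cells over ligation, 7 for cells over sham) stayed within 1.5 times under each alternative run. DESeq2 gave 5, 3 and 7 (32.5%, 7.65% and 34.6% of all genes), library totals 9, 3 and 10 (45.7%, 9.86% and 45.6%), and libraries summed by header stem 5, 3 and 7 (32.5%, 7.83% and 38.5%), the last losing Tbx2 and Hand2 after ligation. Without any 1 library they were 5 to 7, 2 to 3 and 6 to 8, beside 31.9% to 38.7%, 6.75% to 9.91% and 35.8% to 40.9% of all genes. A fit with a replicate block gave 7, 3 and 7 (37.1%, 8.9% and 39.9% of all genes) and changed no member's call. The mean correlation of deviations between libraries of the same number was 0.000411, 0.00405 and -0.0262, which gives no sign of pairing. With 3 pairs in each comparison, it does not settle whether libraries of the same number were handled together.

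Signs turned for 3 genes that did not pass. Mef2a after ligation became 0.165 with library totals alone (edgeR adjusted p 0.0238) and ran from -0.0725 to 0.00363 without single libraries. Mef2d in cells against ligation became -0.0139 with library totals and ran from -0.0361 to 0.0571 without single libraries, and Hand2 there from -0.0517 to 0.0881. Library totals also brought Mef2c (0.30) and Mef2d (0.27) past the threshold after ligation, and Nkx2-5 (0.31), Mef2a (0.20) and Mef2d (0.25) in cells against sham. The cause was not tested. The Mef2c share and the counts per cardiomyocyte marker moved by less than the spread between libraries or within 1.5 times. Depth limits Tbx5 and Tbx2 most, with 106 to 239 and 127 to 182 counts.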

Other observations

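The genes whose levels over the 9 libraries ran most like those of a member, by Pearson correlation of log2 CPM among 9412 genes with a mean of at least 10 CPM, are given as a description. The points share libraries and fall into 3 groups. Closest to Tbx20 were Thbs1, a matricellular protein gene, at 0.995, Slmap at 0.991 and Mylf-ps at 0.990. Slmap was also closest to Tbx5 (0.990), before Nabp1 (0.990) and Ghitm (0.989). Closest to Srf was Vcl, the vinculin gene and a listed SRF target, at 0.989, before Gpd1 (0.987) and Tob2 (0.981). Gata4 ran with Acta1 (0.978), Sik1 (0.977) and Xirp1 (0.976), of which Acta1 and Xirp1 are on the target lists. Tbx2, the member that fell, ran with Ifit3 (0.974), Gstp1 (0.968) and Galt (0.965). Nkx2-5 ran with Oplah (0.980), Hand2 with Lrrcc1 (0.976), Mef2c with Zfp770 (0.969) and Mef2d with Fbxo10 (0.960). The lowest best match was that of Mef2a, D10Jhu81e at 0.919.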
